A study of Mus musculus with 12 samples.

Results

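A list of 46 genes that mark neuroblasts and neurons, or that build the neuronal cytoskeleton, was followed in cultured neural precursor cells exposed to hydrogen peroxide. Genes were taken by symbol from the 15478 genes of the authors' deposited table, with synaptic and channel genes kept out of the list, and 44 of the 46 were present. The proneural factor genes Neurod2 and Neurog2 had no row in that table. RNA was sequenced from primary neural precursor cells, isolated from adult female C57BL/6 mice aged 5 to 12 weeks and kept undifferentiated. The 3 groups were a sham exposure to phosphate-buffered saline, called control here, and 100 µM hydrogen peroxide for 1 h or for 8 h. Each group held 4 biological replicates, 12 samples in all, and the design text pairs the groups by 4 animals, each of which gave 1 sample per group. No group carried a transgene or a deletion, as far as the labels say. When after sham exposure the control cells were collected is not stated in those labels.

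Only results of the authors' comparisons could be used, with no single-sample values, so neither the level in each sample nor the depth of each library is known. Outlier samples had been removed, per the names of the deposited tables, and the number left in each group, at most 4, is not stated. A value after ± is a standard error implied by the authors' likelihood ratio, computed by dividing the size of the log2 fold change by the square root of that statistic. Genes were called at an adjusted p below 0.05, and "rose" and "fell" refer to such calls, with sizes on the log2 scale unless a percentage is given. The comparisons at 1 h and 8 h share the control samples, and the comparison of 8 h with 1 h is the difference between the others. Their values are therefore set side by side, and where a pair of values carries no time, the first is 1 h and the second 8 h, each against control.

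A newborn neuron assembles a cytoskeleton unlike that of the precursor it came from. Doublecortin and the microtubule-associated proteins bundle and stabilise microtubules, and stathmins promote microtubule disassembly. Neurofilament proteins and alpha-internexin replace nestin as the main intermediate filaments. Proneural transcription factors of the basic helix-loop-helix class bind short DNA motifs called E-boxes, and RNA-binding proteins of the ELAVL and RBFOX families control neuronal splicing and mRNA stability. In cultures of adult precursors such RNAs can come from cells that have entered the neuronal lineage, and some of them are also made by glia and by the precursors themselves.

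Start regions of 4 genes are shown as examples of differing time courses, chosen after their values were seen. Stmn3 and Ina were higher at 1 h and lower at 8 h, and Nrcam was lower at 1 h and higher at 8 h. Cntn1 had the largest fall at 8 h among the listed genes with a mean above 1 log2 CPM (counts scaled to library size). Each sequence holds the 250 bases before a RefSeq transcript start on build GRCm38.p6, read 5′ to 3′ on the strand of the gene. It has 0 bases in annotated exons of that gene, and overlap with exons of other genes was not checked. The regions are chr2:181314501-181314750 on the minus strand for Stmn3, chr19:47014431-47014680 on the plus strand for Ina, chr15:92050915-92051164 on the plus strand for Cntn1 and chr12:44328635-44328884 on the plus strand for Nrcam. The E-box letters searched on either strand were CAGCTG, then CAGATG, and lastly CAGGTG, and capitals mark each match.
Stmn3: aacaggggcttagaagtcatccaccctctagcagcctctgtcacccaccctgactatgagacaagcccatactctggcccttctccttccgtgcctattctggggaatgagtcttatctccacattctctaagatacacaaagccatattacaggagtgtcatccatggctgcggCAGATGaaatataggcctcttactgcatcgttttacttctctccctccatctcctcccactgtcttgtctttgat
Ina: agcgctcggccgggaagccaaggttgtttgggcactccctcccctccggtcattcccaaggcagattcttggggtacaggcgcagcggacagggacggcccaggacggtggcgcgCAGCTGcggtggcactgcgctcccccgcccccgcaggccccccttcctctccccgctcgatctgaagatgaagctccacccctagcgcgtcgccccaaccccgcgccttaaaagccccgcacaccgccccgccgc
Cntn1: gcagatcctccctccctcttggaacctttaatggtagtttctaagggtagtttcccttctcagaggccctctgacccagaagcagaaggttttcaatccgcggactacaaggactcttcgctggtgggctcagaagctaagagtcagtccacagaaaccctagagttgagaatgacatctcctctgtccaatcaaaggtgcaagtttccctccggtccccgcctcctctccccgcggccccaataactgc
Nrcam: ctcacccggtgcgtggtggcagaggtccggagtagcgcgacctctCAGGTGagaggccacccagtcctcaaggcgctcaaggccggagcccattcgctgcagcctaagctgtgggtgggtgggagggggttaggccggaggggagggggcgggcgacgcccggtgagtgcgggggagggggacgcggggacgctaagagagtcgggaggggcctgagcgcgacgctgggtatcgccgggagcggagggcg
The CAGATG of Stmn3 began 75 bases before the start, the CAGCTG of Ina 135 bases and the CAGGTG of Nrcam 205 bases, while the Cntn1 region shown held none of these letters. RefSeq windows were found for 31 of the 44 genes, and in 19 of them (61.3%) the 250 bases before at least 1 start held such an E-box. The share was 36.9% over 11087 genes of the table with a window, and genes with more starts have more windows to match. In the 250 bases before each of 32851 starts, 13% held the letters CAGCTG, 14.4% held CAGATG and 17.2% held CAGGTG. These matches describe the letters in these windows.

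The table's mean over all samples placed the 44 genes between -0.72 and 10.48 log2 CPM, with a median of 5.54 against 4.55 for all genes. Per kb of exon, Tubb2b, a beta-tubulin of immature neurons, had the highest level, at 9.28 log2 CPM per kb, computed here from the mean and exon length in the authors' deposited table. It was followed by Gap43, a growth cone protein, at 7.10 and by the transcription factor gene Sox4 at 6.80 log2 CPM per kb. The lowest level per kb was that of Myt1l, a repressor of non-neuronal genes, at -3.57. Means under 1 log2 CPM were found for 7 genes, namely Stmn2, L1cam, Rbfox1, Rbfox3, Neurod1, Myt1l and Tbr1. Stmn2, a stathmin of neurons, and Rbfox3, which encodes the neuronal nuclear antigen NeuN, were thus close to the lower end of the table, whereas Tubb3, Map2 and Dcx had means of 5.76, 9.10 and 5.49 log2 CPM. The list therefore mixes genes of high level in these cultures with genes near the limit of the authors' filter.

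The 12 precursor and astroglial markers had means of 1.55 to 11.97 log2 CPM, with a median of 8.00, against 4.55 for all genes. The authors' deposited table gives a mean of 10.59 log2 CPM for Nes and 8.43 for Sox2. The 10 oligodendrocyte lineage markers had means of 1.43 to 10.43 log2 CPM and a median of 8.51. Among these, Olig1 was at 10.43 and Mbp at 10.27 log2 CPM. Microglial genes were near the lower end, with 2 of 7 markers in the table and the higher of them, P2ry12, at 0.37 log2 CPM. Endothelial and mural genes were represented by 4 of 6 markers with means up to 0.08 log2 CPM, and ependymal genes by 4 of 5, led by Foxj1 at 5.00 log2 CPM. Genes of the synapse of mature neurons were represented by 7 of 8 markers with means up to 4.55 log2 CPM.

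After 1 h of peroxide the neuronal genes moved little and in both directions. Of the 44 genes, 11 rose (25.0%) and 14 fell (31.8%) in the authors' deposited table, against 20.5% higher and 22.2% lower among all genes, of which 42.7% were called in either direction. The median log2 change was -0.05, against 0.01 over all genes, and -0.11 over the 37 genes with a mean of at least 1 log2 CPM. A single gene, Tbr1, rose at least 2-fold, where 3.99% of all genes did so. The largest fall was that of Myt1, at -0.50 ± 0.10, and a fall of at least 2-fold occurred in 0.181% of all genes. At this time 3 of 3 intermediate filament genes and 3 of 4 stathmin genes rose, and 6 of 7 microtubule-binding genes fell.

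After 8 h most of the list was lower than in control cells. Of the 44 genes in the authors' deposited table, 32 fell (72.7%) and 4 rose (9.09%), against 28.2% lower and 27.4% higher among all genes, of which 55.7% were called. The median log2 change was -0.70, against 0.01 over all genes, and 15 genes fell at least 2-fold, as did 5.81% of all genes. Over the 37 genes with a mean of at least 1 log2 CPM the median was -0.46, and 2 genes rose at 8 h when those sharing exonic bases with another tested gene were left out. The greatest rise was 0.64 ± 0.06, for Nefl, and 2.64% of all genes rose at least 2-fold. Between 1 h and 8 h, 31 genes fell and 6 rose, against 32.4% lower and 30.3% higher among all genes (62.7% called), with a median of -0.61 against -0.01. Of the 31, 16 fell at least 2-fold between these times, as did 9.3% of all genes; 1.69% of all genes rose by as much. In such bulk samples fewer neuronal cells, less RNA per cell and changes in other cells making these RNAs cannot be told apart.

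**Figure D1:**
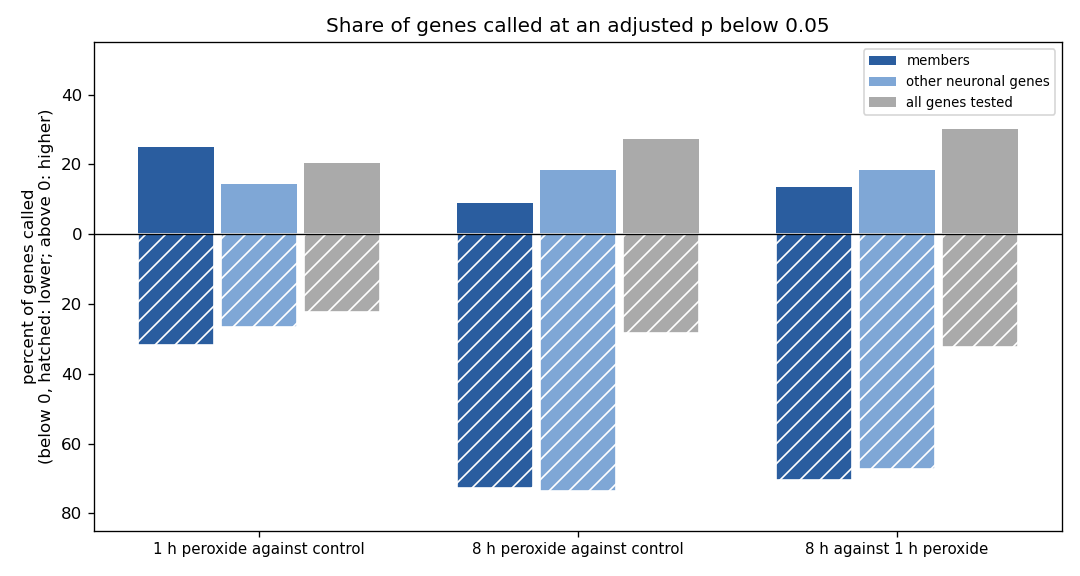
Percent of genes called higher (above 0) or lower (below 0, hatched) at an adjusted p below 0.05 in each comparison, for the 44 neuronal lineage and cytoskeleton genes (labelled members), 49 other neuronal genes and all 15478 genes tested. At 8 h, 72.7% of the 44 genes were lower, against 28.2% of all genes.

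Of the 7 microtubule-binding genes 6 fell at 1 h and 5 fell at 8 h, when their changes were spread widely. Among all genes 22.2% fell at 1 h and 28.2% fell at 8 h. Dcx encodes doublecortin, the usual marker of migrating neuroblasts, and lies on chromosome X from 143855842 to 143933311 (GRCm38, minus strand). In the authors' deposited table Dcx fell by 0.29 ± 0.09 at 1 h (adjusted p = 0.0075) and fell by 1.62 ± 0.10 at 8 h (adjusted p = 1.8e-59), which left 32.6% of the control level (95% interval 28.5% to 37.3%). Its relatives Dclk1 and Dclk2, doublecortin-like kinases, are also made by radial glia and precursors. Dclk1 fell by 0.25 ± 0.03 at 1 h and stood at 0.03 ± 0.03 at 8 h (adjusted p = 0.46), and Dclk2 fell by 0.29 ± 0.03 and fell by 0.24 ± 0.03 in the authors' deposited table. The 3 genes thus had like changes at 1 h, and the 95% interval of Dcx at 8 h lay far below those of both kinases.

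Among the microtubule-associated proteins, Map2 and Mapt, which stabilise microtubules of dendrites and axons, had the larger falls at 8 h. Map2 fell by 0.28 ± 0.04 at 1 h and fell by 0.76 ± 0.04 at 8 h in the authors' deposited table. Mapt, which encodes tau, was at -0.11 ± 0.07 at 1 h (adjusted p = 0.2) and fell by 1.03 ± 0.07 at 8 h (adjusted p = 1.1e-48). Map1b, the earliest of these proteins to appear in growing axons, had its larger fall at 1 h, with a log2 change of -0.42 ± 0.05, then -0.29 ± 0.05 at 8 h and a rise of 0.13 ± 0.05 between the times (adjusted p = 0.027). Map1a, its adult counterpart, fell by 0.13 ± 0.05 at 1 h and was not called at 8 h, at -0.08 ± 0.05. Map1a and Map1b were thus closer to control at 8 h than Map2 and Mapt were.

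Both tubulin genes changed less at 8 h than Dcx, Map2 and Mapt did. Tubb3, whose protein is the TUJ1 antigen of young neurons, was not called against control, at 0.14 ± 0.06 at 1 h (adjusted p = 0.057) and -0.12 ± 0.06 at 8 h (adjusted p = 0.067), although it fell by 0.26 ± 0.06 between the times in the authors' deposited table. Tubb2b was at 0.07 ± 0.04 at 1 h and fell by 0.41 ± 0.04 at 8 h (adjusted p = 9.9e-21). Its near-identical copy Tubb2a, which is not on the list, fell by 0.13 ± 0.04 at 8 h, and the labels and headers do not say how reads common to both were assigned. At 8 h Tubb3 was thus at 91.8% of control (95% interval 84.7% to 99.6%), above the interval of Dcx.

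**Figure D2:**
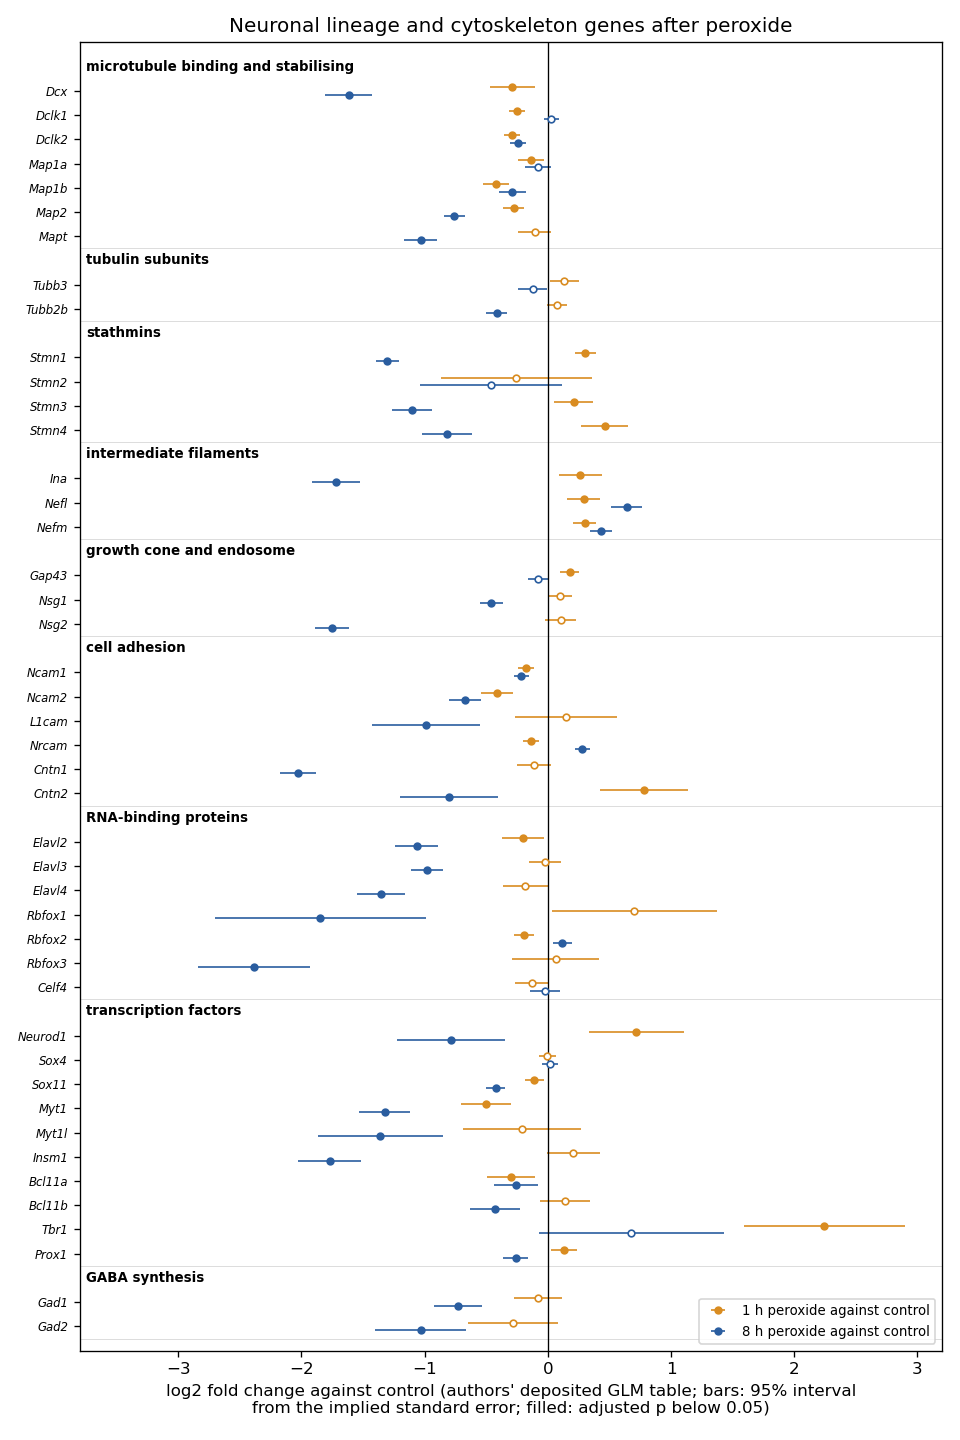
Log2 fold change against control at 1 h (orange) and 8 h (blue) of peroxide for each of the 44 genes, grouped by role; bars are 95% intervals from the implied standard error, and filled points passed an adjusted p below 0.05. The 8 h points lie left of 0 for most genes, down to -2.39 for Rbfox3, and the filled 8 h points to the right of 0 are Nefl, Nefm, Nrcam and Rbfox2.

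Of the 4 stathmin genes, 3 rose at 1 h and fell at 8 h. Of all genes, 20.5% rose at 1 h and 28.2% fell at 8 h. Stmn1, the form also made by dividing cells, rose by 0.30 ± 0.04 at 1 h (adjusted p = 3.3e-11) and fell at 8 h with a log2 change of -1.30 ± 0.05 (adjusted p = 1.7e-165), to 40.5% of control in the authors' deposited table. Stmn3, a neuronal form, rose by 0.21 ± 0.08 and fell by 1.10 ± 0.08. Stmn4, also neuronal, rose by 0.46 ± 0.10 and fell by 0.81 ± 0.10 in the authors' deposited table. For all 3 the 8 h against 1 h comparison was called, at -1.61 ± 0.05, -1.31 ± 0.08 and -1.27 ± 0.10. Stmn2, with a mean of -0.34 log2 CPM, was called at neither time, and its standard errors of 0.31 and 0.29 would leave a change of the size seen at 1 h in the other 3 undetectable.

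The intermediate filament genes rose together at 1 h and separated at 8 h. In the authors' deposited table Ina, which encodes alpha-internexin, rose by 0.26 ± 0.09 at 1 h (adjusted p = 0.0096) and fell by 1.72 ± 0.10 at 8 h (adjusted p = 3.3e-64), to 30.4% of control. Nefl, the light neurofilament chain, rose by 0.29 ± 0.07 at 1 h and 0.64 ± 0.06 at 8 h (adjusted p = 1.6e-22). Nefm, the medium chain, rose by 0.30 ± 0.05 and 0.43 ± 0.05 (adjusted p = 3.1e-20). Both neurofilament genes also rose from 1 h to 8 h, by 0.35 ± 0.06 and 0.13 ± 0.04. They were the 2 largest of the 4 rises on the list at 8 h, opposite in direction to Ina. Nefl (chromosome 14, 68083863 to 68089095, plus strand) and Nefm (68082590 to 68124846, minus strand) are annotated on opposite strands with 1.11 kb of exon in common, 32.8% of the exons of Nefl and 19.2% of those of Nefm. The libraries were made with a stranded kit. No label or header gives the strand setting of the counting, so how reads from those bases were assigned is not known. Ina overlaps the exons of Nt5c2 on the opposite strand over 14.1% of its own exons, and Nt5c2 was at -0.05 at 8 h in the authors' deposited table.

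**Figure D3:**
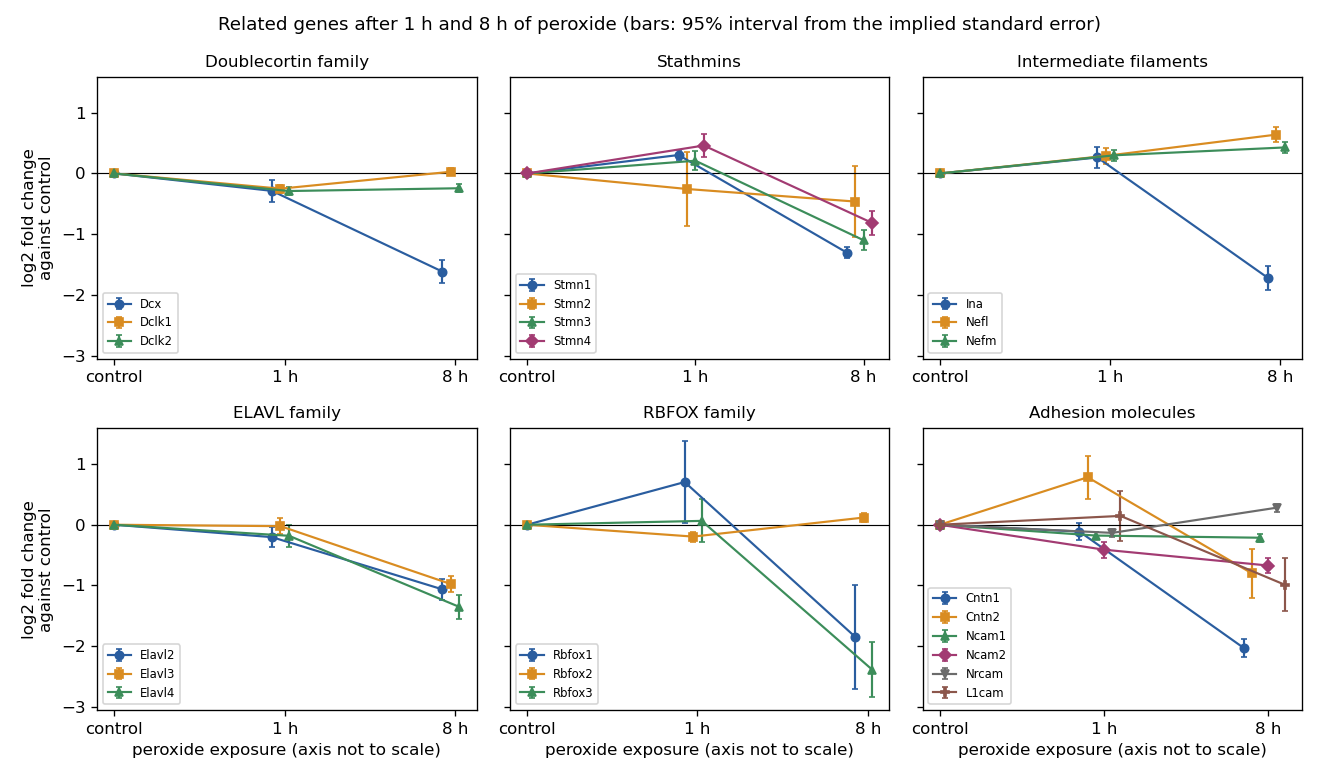
Log2 fold change against control at 1 h and 8 h for related genes, with control set at 0; bars are 95% intervals from the implied standard error and points are shifted sideways for clarity. Dcx, Ina, Rbfox1 and Rbfox3 drop at 8 h while Dclk1, Nefl, Nefm and Rbfox2 of the same groups do not, and the 3 ELAVL genes drop together.

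Gap43 rose at 1 h, when the endosomal genes Nsg1 and Nsg2 were not called, and both of these fell at 8 h. Gap43 rose by 0.18 ± 0.04 at 1 h and was at -0.08 ± 0.04 at 8 h (adjusted p = 0.095) in the authors' deposited table. Nsg1 was at 0.10 ± 0.05 and fell by 0.46 ± 0.05 at 8 h, and 17.9% of its exon bases are also exon of Stx18 on the opposite strand. Nsg2, whose product takes part in the trafficking of neuronal receptors, was at 0.10 ± 0.07 and fell by 1.75 ± 0.07 at 8 h (adjusted p = 1.4e-131), to 29.7% of control. The fall of Nsg2 was the greater of the pair, with 95% intervals that did not overlap.

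All 6 adhesion genes were called at 8 h, 5 of them lower, when 55.7% of all genes were called and 28.2% were lower. Cntn1, which encodes the axonal glycoprotein contactin-1 and is also made by oligodendrocyte precursors, lies on chromosome 15 from 92051165 to 92341967 (plus strand). It was at -0.11 ± 0.07 at 1 h (adjusted p = 0.2) and fell by 2.03 ± 0.08 at 8 h (adjusted p = 5.3e-158) in the authors' deposited table, to 24.5% of control (95% interval 22.1% to 27.1%). Cntn2, which encodes the transient axonal glycoprotein TAG-1, rose by 0.78 ± 0.18 at 1 h and fell by 0.80 ± 0.20 at 8 h, at a mean of 1.16 log2 CPM. L1cam, a neurite outgrowth molecule, was at 0.15 ± 0.21 and fell by 0.99 ± 0.22.

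The neural cell adhesion genes had smaller changes. Ncam1, made by neurons and glia alike, fell by 0.18 ± 0.03 at 1 h and fell by 0.21 ± 0.03 at 8 h in the authors' deposited table. Ncam2 fell by 0.41 ± 0.07 and fell by 0.67 ± 0.07. Nrcam, which links axons to ankyrin, fell by 0.13 ± 0.03 at 1 h and rose by 0.28 ± 0.03 at 8 h (adjusted p = 2.7e-17). The difference between the times for Nrcam was 0.41 ± 0.03, the largest rise on the list from 1 h to 8 h.

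Among RNA-binding proteins the ELAVL genes fell as a group at 8 h. Elavl2 fell by 1.06 ± 0.09, Elavl3 fell by 0.98 ± 0.07 and Elavl4 fell by 1.35 ± 0.10 at 8 h in the authors' deposited table. These are the neuronal Hu proteins, which stabilise mRNAs of differentiating neurons. At 1 h Elavl2 passed the threshold, at -0.20 ± 0.09 (adjusted p = 0.045), a call lost in the authors' voom table (adjusted p = 0.0723), and Elavl3 and Elavl4 did not, at -0.02 ± 0.07 and -0.18 ± 0.09.

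The RBFOX splicing factor genes did not move as one. Rbfox3 had the largest fall of the list at 8 h, with a log2 change of -2.39 ± 0.23 (adjusted p = 1.4e-23), to 19.1% of control (95% interval 13.9% to 26.2%) at a mean of 0.74 log2 CPM in the authors' deposited table. Rbfox1 fell by 1.85 ± 0.44 at the lowest mean of the list, -0.72 log2 CPM. Rbfox2, the form found in many tissues and here at 6.58 log2 CPM, fell by 0.20 ± 0.04 at 1 h and rose by 0.12 ± 0.04 at 8 h (adjusted p = 0.0057). Celf4, a translational regulator of neurons, was called in neither comparison with control, at -0.13 ± 0.07 and -0.02 ± 0.06. The 2 low-level forms thus fell by an estimated 2-fold or more, and the abundant form rose slightly.

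Of 10 transcription factor genes in the table, 3 rose and 3 fell at 1 h, and 8 fell at 8 h. Among all genes 20.5% rose and 22.2% fell at 1 h, and 28.2% fell at 8 h. Neurod1, a proneural factor, rose by 0.72 ± 0.20 at 1 h and fell by 0.79 ± 0.22 at 8 h (both adjusted p = 0.0011) at a mean of 0.67 log2 CPM in the authors' deposited table. Insm1, a zinc finger factor of cells leaving the cycle to become neurons, was at 0.21 ± 0.11 and fell by 1.77 ± 0.13 at 8 h (adjusted p = 2.7e-41). Myt1 fell by 0.50 ± 0.10 at 1 h and fell by 1.32 ± 0.11 at 8 h in the authors' deposited table. Its relative Myt1l was at -0.21 ± 0.24 and fell by 1.36 ± 0.26.

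The remaining factors changed less. Sox11, which acts in newborn neurons, fell by 0.11 ± 0.04 and fell by 0.42 ± 0.04 in the authors' deposited table, whereas its relative Sox4 was called in no comparison, at 0.00 ± 0.03 and 0.02 ± 0.03. The 95% interval of Sox4 at 8 h ran from 96.7% to 106% of control, and 54.6% of its exon bases are also annotated as exon of an opposite-strand non-coding gene, Gm26735. Bcl11a, a factor of projection neurons and precursors, fell by 0.30 ± 0.10 and fell by 0.26 ± 0.09, and Bcl11b was at 0.14 ± 0.10 and fell by 0.43 ± 0.10. Prox1, a factor of dentate granule cells and oligodendrocyte precursors, rose by 0.13 ± 0.05 at 1 h (adjusted p = 0.035) and fell by 0.26 ± 0.05 at 8 h. The 1 h call of Prox1 was lost in the authors' voom table (adjusted p = 0.0518).

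Tbr1, a factor of glutamatergic neurons, was the exception among these factors. In the authors' deposited table it rose by 2.25 ± 0.33 at 1 h (adjusted p = 2.3e-10), 4.74 times the control level, and was at 0.68 ± 0.38 at 8 h (adjusted p = 0.12), at a mean of -0.40 log2 CPM. Tbr1 (chromosome 2, 61802930 to 61814114, plus strand) starts 2.55 kb past the end of Psmd14 on the same strand, a proteasome subunit gene at 0.03 at 1 h. Of 560 genes with a mean under 2 log2 CPM that rose at least 2-fold at 1 h, 67.7% started within 50 kb of a gene upstream on the same strand with a mean of at least 3 log2 CPM. This was so for 30.5% of 3539 other genes of such low level, and for 3 of the 9 low-level genes on the list, Tbr1, Cntn2 and L1cam. Whether transcription from the neighbour contributes to these values was not tested.

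Both glutamate decarboxylase genes, which make GABA, were called at 8 h and not at 1 h. The share of all genes called was 55.7% at 8 h and 42.7% at 1 h. Gad1 was at -0.08 ± 0.10 at 1 h and fell by 0.73 ± 0.10 at 8 h in the authors' deposited table. Gad2 was at -0.28 ± 0.18 and fell by 1.03 ± 0.19. For each the comparison of 8 h with 1 h was called too, at -0.65 ± 0.10 and -0.75 ± 0.20.

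Gene span was set beside the changes because the list holds long genes. The 44 genes span a median of 61.6 kb (3.1 to 1526 kb), against 25.6 kb for 13263 protein-coding genes of the table. At 1 h the 12 genes under 20 kb had a median log2 change of 0.24, and 7 rose and 1 fell, while 5616 protein-coding genes of that span had a median of 0.08, with 32.4% higher and 8.46% lower. For 17 genes of 20 to 100 kb the median was -0.02, against -0.03 for 5587 genes. The 15 genes of at least 100 kb had a median of -0.18 and 8 of them fell, while 2060 protein-coding genes had a median of -0.24, with 60.4% lower and 2.18% higher. The 1 h changes were thus split by span on the list and in the table alike.

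At 8 h the picture by span was different. The medians of the 44 genes were -0.60, -0.46 and -0.76 from the shortest to the longest class, against 0.03, 0.01 and -0.12 for the protein-coding genes in the authors' deposited table. Of the 12 genes under 20 kb 8 fell at 8 h (66.7%), against 24.8% of protein-coding genes of that span. Of the 17 of middle span 13 fell (76.5%), against 29.9%, and of the 15 longest 11 fell (73.3%), against 47.3%. Short genes such as Insm1 (3.1 kb), Stmn1 (5.52 kb) and Ina (10.6 kb) were among those that fell at least 2-fold. Low values were thus found in every class of span at 8 h.

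**Figure D4:**
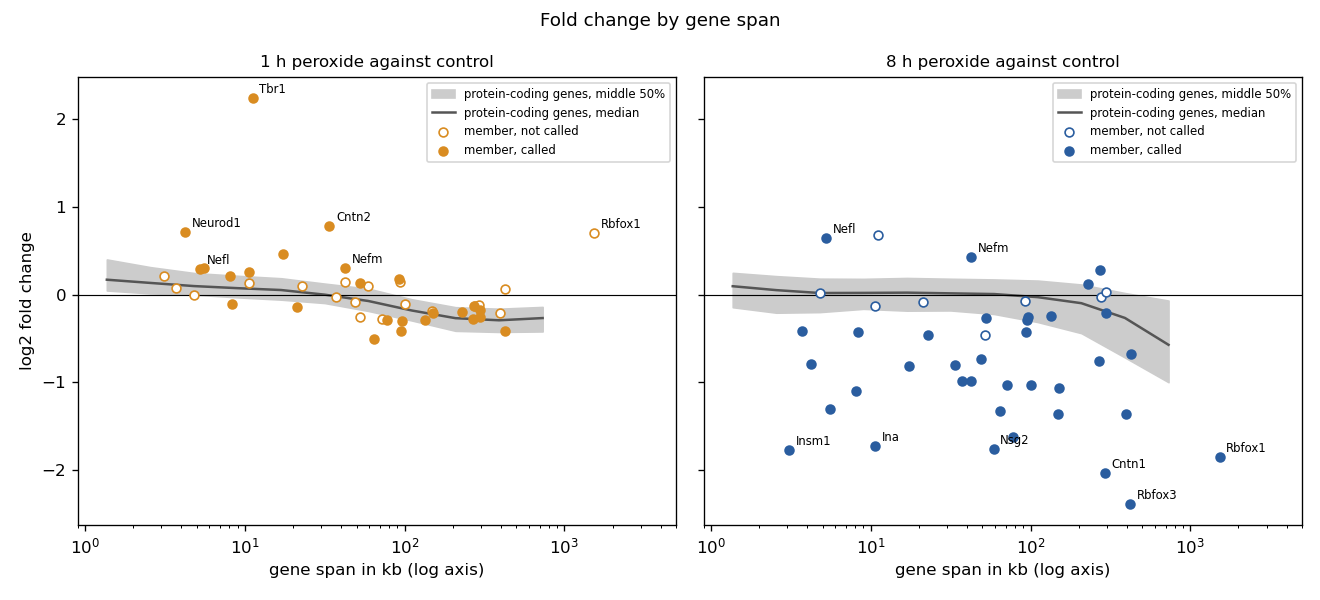
Log2 fold change against the annotated span of each gene in kb (log axis) at 1 h and 8 h; points are the 44 genes (filled where called), the line is the median and the band the middle 50% of protein-coding genes. At 1 h the median of the points goes from 0.24 below 20 kb to -0.18 at 100 kb or more, and that of the protein-coding genes from 0.08 to -0.24; at 8 h most points lie below the line.

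Of 57 other genes of neuronal differentiation, 49 were in the table. At 1 h 7 rose (14.3%) and 13 fell (26.5%), with a median of 0.00, against 20.5% higher and 22.2% lower among all genes. At 8 h 9 rose (18.4%) and 36 fell (73.5%), with a median of -0.48, against 27.4% and 28.2% in the authors' deposited table. Rest, a repressor of neuronal genes in other cells, rose by 0.47 ± 0.05 at 1 h (adjusted p = 5.3e-21) and 0.37 ± 0.05 at 8 h. Cdk5r1, the activator of the neuronal kinase Cdk5, rose by 0.43 ± 0.06 at 1 h and fell by 0.53 ± 0.07 at 8 h. Of the ankyrin genes, Ank2 fell by 0.50 ± 0.04 and Ank3 fell by 0.49 ± 0.05 at 1 h in the authors' deposited table.

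At 8 h Nova1, Chl1 and Crmp1 were among the 4 other neuronal genes with the smallest adjusted p of those that fell. Nova1, a splicing factor, fell by 0.89 ± 0.04, Chl1, a relative of L1cam, fell by 1.57 ± 0.10, and Crmp1, a collapsin response mediator, fell by 0.47 ± 0.03 in the authors' deposited table. Against this trend, Celf5, an RNA-binding protein gene of the family of Celf4, rose by 1.99 ± 0.05. Cd24a, a surface protein of neuroblasts and ependymal cells, rose by 0.37 ± 0.04, the microtubule end-binding gene Mapre3 by 0.43 ± 0.04 and the microtubule-stabilising gene Map6 by 0.47 ± 0.05 in the authors' deposited table. The mixture of many falls and few rises was thus present in both lists.

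Markers of other cells moved at the same time, and their counts are to be read beside the shares of all genes. Those shares were 27.4% higher and 28.2% lower at 8 h, and 20.5% higher and 22.2% lower at 1 h. At 8 h all 6 proliferation genes fell, among them Mki67 at -2.81 ± 0.06 and Top2a at -2.41 ± 0.05, and 9 of 10 oligodendrocyte lineage genes fell, with a median of -0.81 and -2.89 ± 0.06 for Pdgfra in the authors' deposited table. Of 12 precursor and astroglial genes 3 rose and 7 fell, with 0.54 ± 0.04 for Nes, -0.09 ± 0.03 for Sox2 and -2.38 ± 0.20 for the Notch target Hes5. Of 7 synaptic genes 6 fell, such as Syt1 at -2.42 ± 0.12, and Slc17a7 rose by 3.90 ± 0.34 at a mean of 0.49 log2 CPM. At 1 h 4 of 6 proliferation genes rose, 4 of 10 oligodendrocyte genes fell and 1 of 7 synaptic genes rose. Of the 12 precursor and astroglial genes 2 rose and 6 fell at 1 h, with -0.54 ± 0.04 for Egfr, -0.33 ± 0.04 for Slc1a3 and -0.29 ± 0.03 for Aldh1l1 in the authors' deposited table. At that time 1 of 2 microglial, 2 of 4 endothelial and mural and 2 of 4 ependymal genes rose, and the others of these were not called. The microglial gene Csf1r rose by 1.34 ± 0.37 and the endothelial gene Esam by 1.77 ± 0.34 at 1 h, both at means under 0 log2 CPM. Neither Csf1r nor Esam was called at 8 h, at 0.31 and 0.04 against control. The ependymal gene Foxj1 rose by 0.32 ± 0.07 at 1 h and 0.78 ± 0.06 at 8 h in the authors' deposited table. At 8 h 2 of 4 ependymal genes rose, 1 of 4 endothelial and mural genes fell, and 0 of 2 microglial genes were called. Levels of these markers in single samples are not known, and their part in the changes of the neuronal genes was not tested.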

How the data were processed

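Poly-A RNA libraries were made with a stranded kit from 12 samples, per the labels' protocols. Reads were counted per gene by the authors with featureCounts, per the file headers, and tested with the edgeR GLM pipeline, tagwise dispersion and a likelihood ratio test, and, in a second deposited table, with voom sample quality weights and limma. The build was GRCm38, per the submitters' processing notes. The aligner, annotation release, design formula, tool versions and depths were not stated. The deposited fold changes and mean levels are log2 values. Likelihood ratios, moderated t values and calls are each deposited as a score, and each p-value is deposited raw and after Benjamini-Hochberg adjustment. Exon length and similar entries are other deposited columns. The authors' gene set tests were not used.

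The number of columns with single-sample values was 0, so the planned count test could not be made and the GLM table of 15478 genes was used as deposited. Adjusted p-values matched a Benjamini-Hochberg correction over all genes to within 1.3e-15. The 95% intervals take 1.96 implied standard errors, whose median ratio to those of the voom table over the 44 genes was 1.09 (1 h), 1.04 (8 h) and 1.02 (8 h against 1 h). Coordinates, spans and overlaps come from GENCODE M21, which matched 15463 genes and gave the deposited exon length for 98.2% of genes. Python 3.11.15 with pandas 2.3.3, numpy 2.4.6, scipy 1.17.1 and matplotlib 3.10.9 was used. Every gene on the list could be named. From the other neuronal genes up to 4 per comparison and direction, and from each marker list up to 3 per comparison, with the smallest adjusted p were named, besides Mki67, Top2a, Sox2 and Nes. A gene that this rule names is not reported here. Tubb2a and genes overlapping or neighbouring a listed gene were named for that relation. The genes and lists were chosen with earlier results of these data known. Replicates are called biological in the design text. Because the design formula is not stated, whether the p-values measure the spread between samples or that left after pairing by animal is not known.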

Additional observations from a re-analysis of the deposited data

Results flagged for a closer look

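For 9 of the 44 genes the effects at 1 h and at 8 h were called in opposite directions, and the difference between them, the authors' deposited comparison of 8 h with 1 h, was called too, as was so for 9.69% of all genes (20.5% of the 44). That comparison was called for 37 of the 44 genes in all, against 62.7% of all genes. The log2 difference (8 h minus 1 h) was -1.98 for Ina, -1.61 for Stmn1, -1.58 for Cntn2, -1.50 for Neurod1, -1.31 for Stmn3, -1.27 for Stmn4 and -0.39 for Prox1, which were higher at 1 h and lower at 8 h. It was 0.41 for Nrcam and 0.31 for Rbfox2, which were lower at 1 h and higher at 8 h.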

How the results depend on the processing

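No paired analysis was possible because the deposited files hold the authors' comparisons and no values of single samples, and for the same reason no fit without a replicate could be made. The counts of genes that rose or fell stayed within 1.5 times of those reported in the authors' voom table, after re-centring on the median of all genes, with means of at least 1 log2 CPM and at an adjusted p below 0.01. With means of at least 1 log2 CPM the median log2 change over 37 genes was -0.11 (1 h), -0.46 (8 h) and -0.49 (8 h against 1 h). Without the genes that share exonic bases with another gene of the table, an alternative chosen after seeing the data, 36 remained: 7 rose at 1 h, 2 rose at 8 h, and the medians were -0.11, -0.77 and -0.79 in the same order. Of 132 single results, 129 kept their side of the threshold in the voom table and 131 after re-centring. Prox1 at 1 h lost its call in both (adjusted p = 0.0518 and 0.0594), Elavl2 at 1 h lost it in the voom table (adjusted p = 0.0723), and Nsg1 at 1 h gained one there (adjusted p = 0.0448). No direction of a called result reversed under the alternatives run. The depth of single samples is unknown, and genes with means under 1 log2 CPM have the widest errors.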
